A study of Mus musculus with 12 samples.

Results

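Expression of 10 genes of the smooth muscle contractile apparatus, which also mark peritubular myoid cells, was followed in laser-captured Leydig cell material of mice given a phthalate: Acta2, Actg2, Myh11, Mylk, Tagln, Cnn1, Tpm2, Lmod1, Smtn and Des. They were taken by gene name from the probes on the arrays that are no controls, which gave 18 of 41174 probes and 10 genes. The probes of 9 of these 10 genes passed the filter on signal above background, among 15830 that did so of 27670 genes in all. The remaining gene, Smtn, was well above background on 2 of 12 arrays in DEHP RNA and 3 of 12 in vehicle RNA, and was not tested.

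Peritubular myoid cells are flat contractile cells that wrap the seminiferous tubules and help to move sperm along them. Vascular smooth muscle in the testis interstitium carries the same contractile genes, so these markers do not separate the 2 cell types. In such cells calcium and calmodulin switch on the myosin light chain kinase, the phosphorylated myosin pulls on actin filaments, and proteins bound along the thin filament adjust its activity. Many of the genes are known targets of serum response factor, which binds CArG boxes. Leydig cells, the steroid-making cells captured here, lie between the tubules beside vessels.

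The mice were C57BL/6J males, 21 weeks old. Those of the DEHP group had received di-(2-ethylhexyl) phthalate (200 mg per kg body weight daily, dissolved in corn oil) by gavage for 21 days, and those of the vehicle group corn oil alone. RNA of a single capture cap per mouse was amplified in 2 rounds, and 2 DEHP mice (numbered 1 and 4) were paired with 3 vehicle mice (1, 2 and 4) on 12 two-colour arrays, each pair in both dye orientations. The exposure had 4 mice per group by its description, and the other mice are not analysed here. Well above background were 35.5% to 46.1% of probe spots per array in the green channel and 45.4% to 54.4% in the red channel. All 14 Leydig cell markers on the list used here passed the filter, and so did all 20 spermatid markers. Vehicle mouse 4 is the 1 vehicle mouse on slide 3, which it shares with both DEHP mice, so vehicle mouse 4 and that slide cannot be told apart.

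The signal of the highest genes rests on short stretches of transcript, given here so that each value can be traced to its probe. Each probe is 60 bases long, and its position is given on assembly mm7, as the files have it. The first 30 bases, 5′ to 3′ and all in lower case, of the probes that stand for Acta2, Tagln, Cnn1 and Lmod1, and of a second Acta2 probe that carries the same pattern, were:
Acta2, chr19:33942803-33942862, minus strand: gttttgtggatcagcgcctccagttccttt
Acta2, second probe, chr19:33942440-33942499, minus strand: acactgacttcacagctagagtgactattt
Tagln, chr9:45888137-45888196, minus strand: ctttgaaggagacccagcccagcctctaca
Cnn1, chr9:21988172-21988231, plus strand: acacacgcattttggttttgcagtgactgg
Lmod1, chr1:135256519-135256577, plus strand: agcagacattttcttcacatcacctgctgc
A probe each of Acta2 and Tagln gave little signal, and these are shown whole. That of Acta2 passed the filter, with vehicle mouse 2 highest (0.12) and DEHP mouse 4 lowest (-0.12), and that of Tagln did not pass:
Acta2, chr19:33949738-33952992, minus strand, across an intron: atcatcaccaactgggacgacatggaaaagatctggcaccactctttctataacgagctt
Tagln, chr9:45888956-45889015, minus strand: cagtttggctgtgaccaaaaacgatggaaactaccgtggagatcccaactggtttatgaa

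Where a gene had several probes, the brightest stood for it. The Tagln probe used was well above background on 12 of 12 arrays in each group, while the one 819 bases upstream was so on 0 arrays for DEHP and 3 for vehicle, and no difference is drawn from it. Acta2 had 5 probes. The one used and the second one printed above, 363 bases nearer the 3′ end, were well above background on all 12 arrays in both groups, the one across an intron on 9 and 10 arrays. The other Acta2 probes, listed under other transcript records, reached it on 0 of 12 DEHP arrays each and on 0 and 1 of 12 vehicle arrays. Of these, the one with 0 arrays in both groups lies nearest the 3′ end of the Acta2 probes.

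All values below are log2 levels set against the average of all 5 mice, from the probe that stands for the gene, and they are compared between mice and not between genes. In bulk material, fewer cells of a type and less RNA per cell cannot be told apart.

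Among the actins, Acta2, the smooth muscle alpha-actin and the standard marker of myoid cells, measured -0.07 in DEHP mouse 1, -0.998 in DEHP mouse 4, -0.64 in vehicle mouse 1, 1.39 in vehicle mouse 2 and 0.32 in vehicle mouse 4. Vehicle mouse 2 stood highest and DEHP mouse 4 lowest, 5.25-fold apart, and the groups overlapped, since DEHP mouse 1 lay above vehicle mouse 1. Its second bright probe gave -0.23, -1.10, -0.73, 1.58 and 0.48 in the same order of mice. Actg2, the gamma-actin of visceral smooth muscle, did not show that order: it measured 0.01 in DEHP mouse 1, 0.19 in DEHP mouse 4, -0.29 in vehicle mouse 1, -0.07 in vehicle mouse 2 and 0.17 in vehicle mouse 4. None of the gaps between neighbours in its order passed the test (limma on the arrays, adjusted p 0.374 to 0.915). Its highest mouse, DEHP mouse 4, lay above its lowest, vehicle mouse 1, by 0.48 (limma on the arrays, adjusted p = 0.0310). For that pair of mice 64.9% of all genes were called. The Actg2 ratios in the 2 dye orientations of a pair lay up to 1.14 apart. Actin genes are close copies of each other in their coding sequence, and whether the Actg2 probe also binds other actins was not tested.

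The motor and its activator varied less. Myh11, the myosin heavy chain found in mature smooth muscle, measured 0.33 in DEHP mouse 1, -0.45 in DEHP mouse 4, -0.04 in vehicle mouse 1, 0.44 in vehicle mouse 2 and -0.27 in vehicle mouse 4. As for Acta2, vehicle mouse 2 was highest and DEHP mouse 4 lowest, but DEHP mouse 1 stood just under vehicle mouse 2, by 0.11 (limma on the arrays, adjusted p = 0.230). Mylk, the myosin light chain kinase, measured 0.02 in DEHP mouse 1, -0.35 in DEHP mouse 4, 0.00 in vehicle mouse 1, 0.12 in vehicle mouse 2 and 0.22 in vehicle mouse 4. DEHP mouse 4 lay below each of the other mice by at least 0.34, and of the other mice vehicle mouse 4 lay above DEHP mouse 1 by 0.20 and above vehicle mouse 1 by 0.22 (adjusted p = 0.00632 and 0.00850). A second Mylk probe, 1677 bases further on, gave 0.10, -0.21, 0.01, 0.10 and 0.01, with DEHP mouse 4 again lowest. Another one, 42721 bases from it, was above background on no array.

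Among the thin filament proteins, Tagln, or transgelin (SM22), an actin-binding protein of smooth muscle, measured -0.01 in DEHP mouse 1, -1.04 in DEHP mouse 4, -0.99 in vehicle mouse 1, 1.64 in vehicle mouse 2 and 0.40 in vehicle mouse 4. Vehicle mouse 2 was 6.37-fold above DEHP mouse 4, while the gap of 0.04 between vehicle mouse 1 and DEHP mouse 4 did not pass the test (adjusted p = 0.321). Lmod1, leiomodin 1, which nucleates actin filaments in smooth muscle, measured 0.07 in DEHP mouse 1, -0.88 in DEHP mouse 4, -0.65 in vehicle mouse 1, 1.19 in vehicle mouse 2 and 0.27 in vehicle mouse 4. Its order of mice was that of Acta2 and Tagln: vehicle 2, vehicle 4, DEHP 1, vehicle 1, DEHP 4.

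Cnn1, calponin 1, which restrains the myosin motor on actin, measured -0.12 in DEHP mouse 1, -0.91 in DEHP mouse 4, -0.12 in vehicle mouse 1, 0.96 in vehicle mouse 2 and 0.19 in vehicle mouse 4. Here DEHP mouse 1 and vehicle mouse 1 were level (a gap of 0.001, adjusted p = 0.981), and DEHP mouse 4 stood apart below them by 0.78. Tpm2, a tropomyosin that winds along the actin filament, measured 0.10 in DEHP mouse 1, -0.53 in DEHP mouse 4, -0.57 in vehicle mouse 1, 0.56 in vehicle mouse 2 and 0.45 in vehicle mouse 4. Its mice fell into vehicle 2 and 4 at the top (adjusted p = 0.488 between them), DEHP 1 in the middle, and DEHP 4 and vehicle 1 at the bottom (adjusted p = 0.741). A second Tpm2 probe gave 0.23, -0.62, -0.28, 0.37 and 0.30, so that DEHP mouse 1 came closer to the upper mice there. On that probe DEHP mouse 4 alone was lowest, below vehicle mouse 1, a gap that was not tested. The level pair at the bottom thus holds for the probe that stands for Tpm2. The actin-binding protein smoothelin, encoded by Smtn, has no value here.

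Des encodes desmin, the intermediate filament protein of muscle. It measured 0.25 in DEHP mouse 1, -0.29 in DEHP mouse 4, 0.00 in vehicle mouse 1, 0.09 in vehicle mouse 2 and -0.05 in vehicle mouse 4, with DEHP mouse 1 highest and DEHP mouse 4 lowest. In DEHP mouse 4 the probe was well above background on 0 of 6 arrays and in DEHP mouse 1 on 5 of 6, so the low value of mouse 4 is near the floor of the measurement. The offset added in background correction pulls ratios of such dim probes toward 0. From the processed signals of the scanner software, which carry no offset, Des was again highest in DEHP mouse 1, at 1.83, and lowest in DEHP mouse 4, where a signal at background gives no level.

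**Figure D1:**
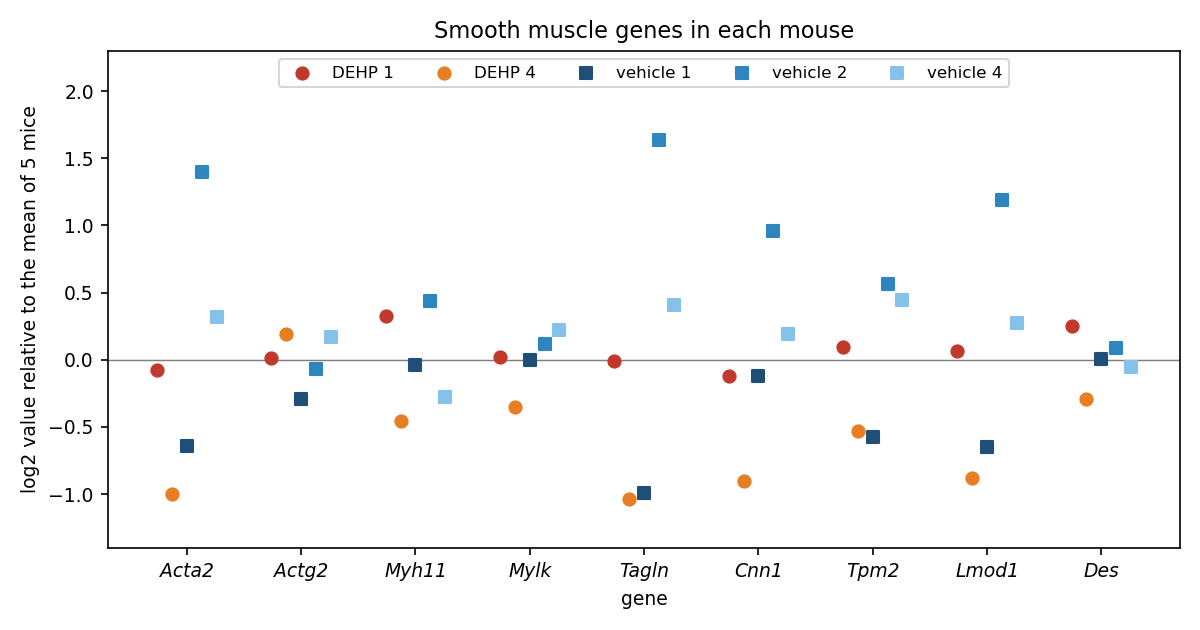
Log2 value per mouse, with the mean of 5 mice at 0 (vertical axis), for the 9 genes tested (horizontal axis); circles are the 2 DEHP mice and squares the 3 vehicle mice. Vehicle mouse 2 is the highest point and DEHP mouse 4 the lowest for Acta2, Myh11, Tagln, Cnn1 and Lmod1, from 1.64 to -1.04 for Tagln.

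The range over the 5 mice was 2.67 for Tagln, larger than that of 99.7% of the genes tested. It was 2.39 for Acta2 (percentile 99.2), 2.06 for Lmod1 (97.8), 1.87 for Cnn1 (95.8) and 1.14 for Tpm2 (75.1). For Myh11 it was 0.89 (61.8), and for Mylk, Des and Actg2 between 0.48 and 0.57, under the median range of 0.73 over all genes. The 5 genes at the top were well above background on all 12 arrays in both groups, the other 4 on fewer, and a dim probe has compressed ratios, so the split between wide and narrow genes cannot be told apart from brightness. Vehicle mouse 2 was highest for 6 of the 9 genes, against 22.8% of all genes, and DEHP mouse 4 lowest for 7 of 9, against 29.9%. Both held for 5 of 9, against 10.3%. With each array centred on its median in place of loess, vehicle mouse 2 was highest for 5, but DEHP mouse 4 lowest for 4 and vehicle mouse 1 lowest for 5.

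The dye orientations gave nearly the same ratios for the bright genes. For Tagln the log2 ratio of DEHP over vehicle was 0.85 and 1.03 for DEHP 1 against vehicle 1, -1.75 and -1.48 against vehicle 2, and -0.53 and -0.28 against vehicle 4, with DEHP RNA in Cy5 and in Cy3. For DEHP 4 it was -0.12 and 0.11 against vehicle 1, -2.80 and -2.60 against vehicle 2, and -1.56 and -1.34 against vehicle 4. The sign thus followed the vehicle partner: with DEHP 1, the ratio was above 0 against vehicle 1 and below 0 against the others. The gap between the orientations of a pair had a median of 0.13 for Acta2, 0.22 for Tagln, 0.21 for Lmod1 and 0.25 for Cnn1. It reached 0.76 for Tpm2, at DEHP 1 against vehicle 4. Of the 12 arrays, the ratio was below 0 on 12 for Mylk, 11 for Cnn1, 10 for Acta2 and Lmod1, 9 for Tagln, 8 for Tpm2 and Myh11, 6 for Des and 2 for Actg2. These arrays repeat 5 mice and are not independent.

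**Figure D2:**
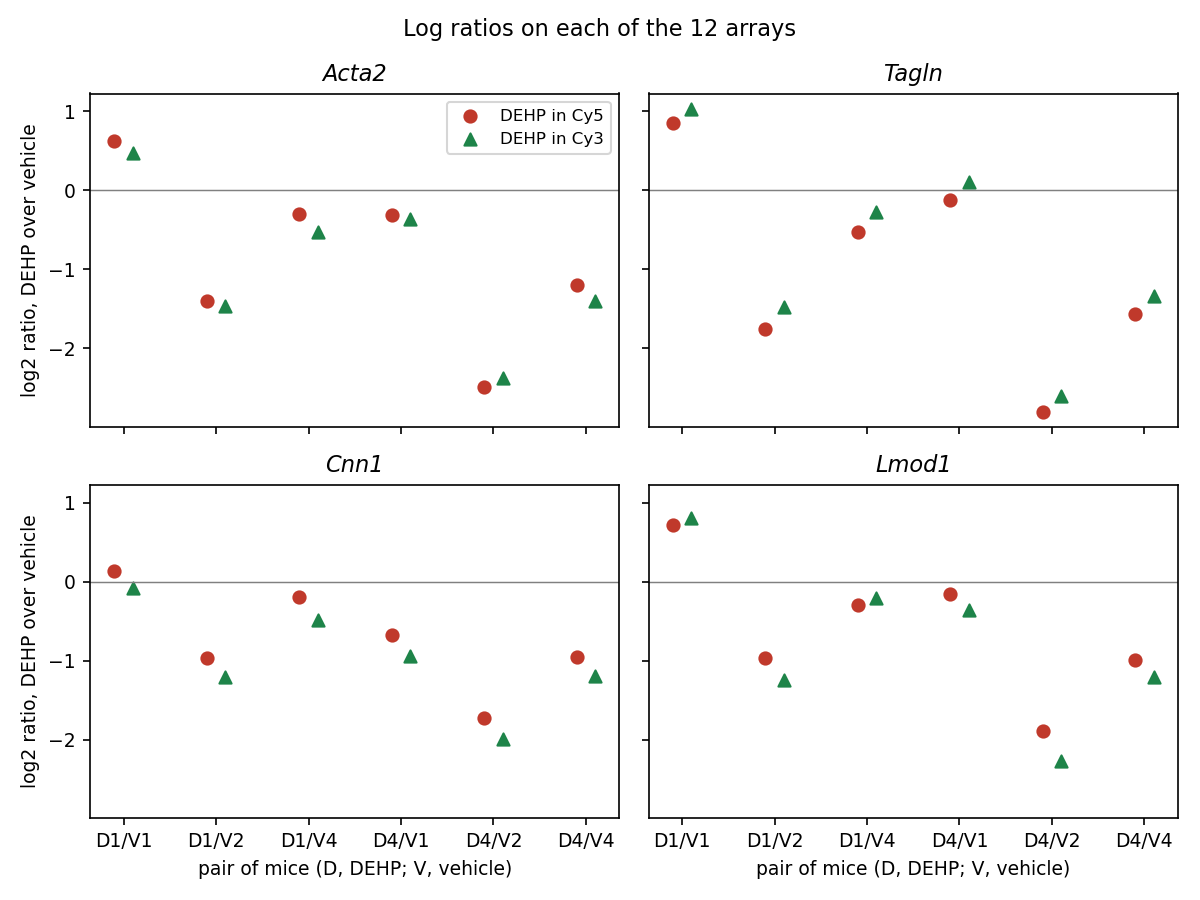
Log2 ratio of DEHP over vehicle (vertical axis) on each of the 12 arrays for Acta2, Tagln, Cnn1 and Lmod1, by pair of mice (horizontal axis; D, DEHP; V, vehicle), with DEHP RNA in Cy5 as circles and in Cy3 as triangles. The orientations of a pair lie at most 0.38 apart in these genes, while pairs with different mice span from 1.03 to -2.80 for Tagln.

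The comparison of the groups asked whether these genes differed after DEHP. Of the 9 genes tested, 8 lay lower in DEHP mice on average and 1, Actg2, higher, and no difference passed the test on the 5 mice. The median log2 difference was -0.36, beside -0.01 over all genes, of which 51.7% lay below 0. None of the 9 was called at an adjusted p of 0.05 (limma on 5 mice), where 0.00% of all genes were, and none had an unadjusted p under 0.05, where 136 genes (0.859%) did. In none of the 9 were the DEHP mice all above or all below the vehicle mice, against 9.17% of all genes.

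Among the differences, Acta2 was at -0.54 ± 0.65 (SD, n = 2) in DEHP mice and 0.36 ± 1.02 (SD, n = 3) in vehicle mice, a log2 difference of -0.89 (95% interval -2.45 to 0.67), or 53.8% of the vehicle level. Tagln was at -0.52 ± 0.73 against 0.35 ± 1.32, a difference of -0.87 (-2.81 to 1.07). Cnn1, with the lowest unadjusted p of the 9 (0.0830, adjusted p = 1.00), was at -0.51 ± 0.55 against 0.34 ± 0.56, a difference of -0.86 (-1.87 to 0.15). For Lmod1 the difference was -0.67 (-2.13 to 0.78). Without DEHP mouse 4 these 4 differences shrank to -0.43, -0.36, -0.47 and -0.20, and without vehicle mouse 2 to -0.38, -0.23, -0.55 and -0.22, in the order Acta2, Tagln, Cnn1, Lmod1. In the same order, they grew to -1.39, -1.54, -1.09 and -1.13 without vehicle mouse 1, and to -1.35, -1.39, -1.25 and -1.15 without DEHP mouse 1. The intervals reach from a several-fold lower level to a level above that of vehicle, so these data neither show a fall of the thin filament genes nor set a narrow limit on one.

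The other genes had smaller differences: -0.36 for Tpm2 (SE 0.42), -0.28 for Mylk (SE 0.21), -0.10 for Myh11 (SE 0.34), -0.03 for Des (SE 0.23) and 0.17 for Actg2 (SE 0.22). From the processed signals, Mylk differed by -0.61 (SE 0.44) and Actg2 by 0.89 (SE 0.42), each with an adjusted p of 1.00. Des moved most, to -1.52 (SE 1.47), a value that includes DEHP mouse 4 at background. The size of these differences thus depended on the signals used, and the cause was not tested. Slides 1 and 2 each hold 1 dye orientation and vehicle mice 1 and 2, while slide 3 holds vehicle mouse 4 as its only vehicle mouse. On slides 1, 2 and 3 alone the median of the 9 genes was -0.23, -0.34 and -0.66. It also moved with single mice. Leaving out DEHP mouse 4 brought it to -0.09, and leaving out DEHP mouse 1 to -0.68. Among the vehicle mice it came to -0.72, -0.22 and -0.26 when mouse 1, 2 or 4 was left out. Myh11 and Des turned to above 0 without DEHP mouse 4 (0.29 and 0.24) or vehicle mouse 2 (0.09 and 0.0034).

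**Figure D3:**
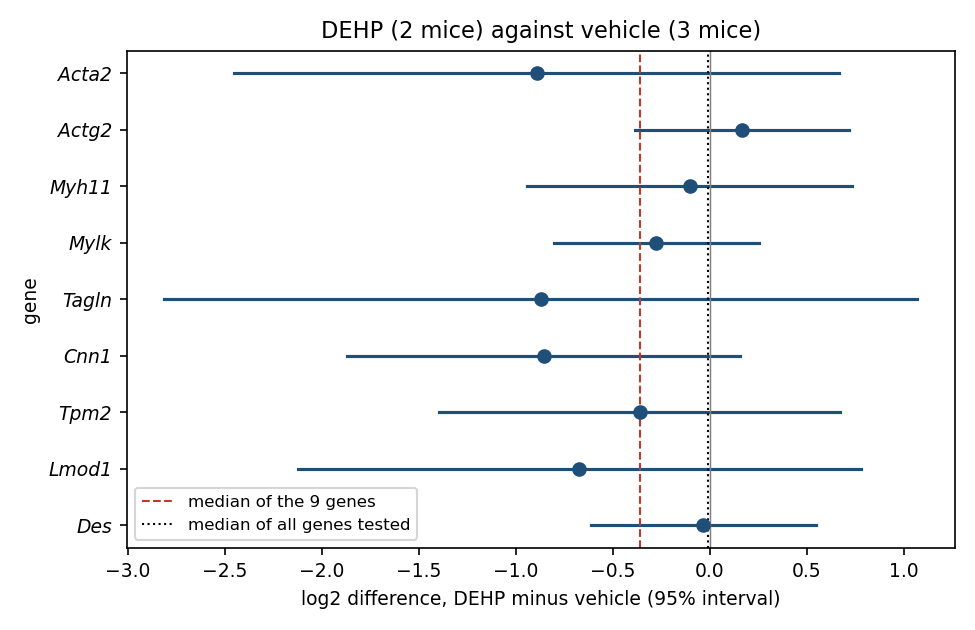
Log2 difference, DEHP minus vehicle (horizontal axis), for the 9 genes tested, with 95% intervals from limma on 2 DEHP and 3 vehicle mice. All 9 intervals include 0, and the dashed line marks the median of these genes (-0.36) beside the dotted line for all genes tested (-0.01).

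Within slides, where no difference between slides can enter, the differences between mice held. Acta2 was lower in DEHP mouse 4 than in DEHP mouse 1 by -1.01, -0.87 and -0.89 on slides 1, 2 and 3, and Tagln by -1.01, -1.02 and -1.05. Vehicle mouse 1 against vehicle mouse 2 gave -2.10 and -1.97 for Acta2 on the slides that hold both, and -2.64 and -2.61 for Tagln. Actg2 had no steady sign, at 0.38, -0.29 and 0.44 between the DEHP mice.

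Mice of the same group were then compared on the 12 arrays, a test of their RNA extracts and not of DEHP. DEHP mouse 4 was below DEHP mouse 1 for 8 of the 9 genes, all but Actg2, where 41.1% of all genes were called lower and 36.3% higher, or 77.4% in either direction. The 8 include Des, whose probe was well above background on 0 of 6 arrays in DEHP mouse 4. The largest of these differences was that of Tagln, -1.03 (SE 0.04, adjusted p = 4.68e-10), and the smallest that of Mylk, -0.36 (SE 0.05, adjusted p = 5.58e-05). This count depended on the normalization: with median centring in place of loess it was 3, and Acta2 lay at -0.50 and -0.46 in DEHP mice 1 and 4. Vehicle mouse 1 was below vehicle mouse 2 for 6 of 9 genes, where 38.0% of all genes were called lower, 33.0% higher and 71.0% either way: Acta2, Myh11, Cnn1, Tagln, Tpm2 and Lmod1. Acta2 differed by -2.03 (SE 0.06) and Tagln by -2.63 (SE 0.04) between these vehicle mice, more than the -0.89 and -0.87 between the groups.

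Against vehicle mouse 4, vehicle mouse 1 was lower for 6 genes and higher for 1, Myh11 (0.24, adjusted p = 0.0382), where 35.3% and 33.5% of all genes were called, 68.8% together. Vehicle mouse 2 was above vehicle mouse 4 for 6 genes, where 29.1% of all genes were called higher, 28.3% lower and 57.4% either way: Acta2, Myh11, Cnn1, Tagln, Des and Lmod1. The differences of Tpm2 (0.11, adjusted p = 0.488) and Mylk (-0.10, adjusted p = 0.188) between these 2 mice did not pass the test. Myh11 thus ordered vehicle mice 1 and 4 opposite to Acta2, Tagln, Cnn1 and Lmod1. These 2 mice share no slide. The Myh11 ratios against vehicle mouse 4 lay 0.54 and 0.49 apart between dye orientations, more than the 0.24 between the mice.

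Other genes of the contractile machinery were counted in the same way. Of 24 further genes of the smooth muscle cytoskeleton and its adhesions, 21 lay below 0 in DEHP minus vehicle and 3 above, with a median of -0.12, none called and 1 without overlap of the groups, which 9.17% of all genes show. The counts without overlap in this and the following lists are descriptions beside that share. That one was Itga8, an integrin subunit, at -0.25 and -0.10 for the DEHP mice against 0.14, 0.07 and 0.14 for the vehicle mice. The lowest p belonged to Fhl1, a LIM protein, at -0.21 and -0.51 against -0.26, 0.69 and 0.28, a difference of -0.59 (SE 0.32). Myl9, the regulatory light chain that the kinase phosphorylates, was picked out after its values were seen: with 0.15 and -1.35 for DEHP mice 1 and 4 and -0.59, 1.30 and 0.48 for vehicle mice 1, 2 and 4, it had a range of 2.65, close to that of Tagln. In this list vehicle mouse 2 was highest for 15 of 24 genes and DEHP mouse 4 lowest for 10.

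Genes that control contraction were mixed, with 7 above 0 and 11 below of 18 tested and a median of -0.10. Of these, 3 had groups that did not overlap, 1 higher and 2 lower after DEHP. Of the lower ones, Calm2, a calmodulin gene, was lower in both DEHP mice, at -0.23 and -0.40 against 0.26, 0.05 and 0.32 (-0.52, SE 0.20). Gucy1a1, a subunit of the nitric oxide receptor, was at -0.09 and -0.33 against -0.01, 0.25 and 0.17.

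Receptors and ligands of myoid cells gave 5 above 0 and 10 below of 15 tested, with a median of -0.19 and 2 without overlap. The angiotensin receptor gene Agtr1a was at -0.06 and 0.68 for the DEHP mice against -0.37, -0.18 and -0.07 for the vehicle mice, and the TGF-beta receptor gene Tgfbr1 at 0.0014 and -0.42 against 0.03, 0.05 and 0.33. In the serum response factor programme 6 of 16 lay above 0 and 10 below (median -0.10), with 2 without overlap. Srf itself was at -0.07 and -0.0515 for the DEHP mice against -0.046, 0.13 and 0.04 for the vehicle mice. Its coactivator gene Mrtfa was at 0.05 and 0.20 against 0.00, 0.03 and -0.28. The lowest p there was that of Fos, at a difference of -0.32 (SE 0.22). The groups of Srf, Mrtfa and Agtr1a are separated only narrowly, and these gaps were not tested against the spread between arrays. Srf ranged over 0.20 among the mice while Acta2 ranged over 2.39, each on its own probe. The brightness of these probes was not compared, and dim probes have compressed ratios.

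Paralogues of the 10 genes had 4 above 0 and 13 below of 17 tested (median -0.10), with 2 without overlap. Tpm3, a tropomyosin of many cell types, was at 0.20 and 0.19 for the DEHP mice against -0.61, 0.08 and 0.13 for the vehicle mice, and Smtnl1, a relative of Smtn, differed by 0.27 (SE 0.26). The striated muscle list gave 6 above 0 and 10 below of 16 (median -0.06), with Myl1, a skeletal light chain, at -0.50 (SE 0.39) and Tnni2, a troponin, at -0.39 (SE 0.27). None of the genes in these lists was called.

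Markers of other cells moved with the same mice. The medians of the 9 smooth muscle genes came to 0.02 for DEHP mouse 1, -0.53 for DEHP mouse 4, and -0.29, 0.56 and 0.22 for vehicle mice 1, 2 and 4. Pericyte and vascular mural markers, with 12 of 12 tested below 0 in DEHP minus vehicle, had medians of 0.33 and -0.51 and of -0.28, 0.39 and 0.17. Among them Heyl, a Notch target of mural cells, lay at -0.10 and -0.93 against -0.27, 0.87 and 0.42, and Rgs5, a pericyte marker, at 0.23 and -0.44 against -0.27, 0.34 and 0.14. In this list vehicle mouse 2 was highest for 8 of 12 genes and DEHP mouse 4 lowest for 10.

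Low values in DEHP mouse 4 and vehicle mouse 1 were shared more widely. Fibroblast and stroma markers (12 tested, 7 below 0) had medians of 0.44 and -0.50 for the DEHP mice against -0.79, 0.44 and 0.21 for the vehicle mice, endothelial markers (13 tested, 11 below 0) 0.24 and -0.26 against -0.45, 0.35 and 0.18, and macrophage markers (16 tested, 9 below 0) 0.42 and -0.33 against -0.35, -0.03 and 0.50. Leydig cell markers, with 12 of 14 below 0, had medians of 0.67 and -0.76 for the DEHP mice against -0.50, 0.29 and 0.52 for the vehicle mice. Insl3, a Leydig cell hormone, was at 0.91 and -1.29 against -1.02, 0.50 and 0.90. Unlike the smooth muscle genes, the Leydig cell list stood highest in DEHP mouse 1, and vehicle mouse 2 was highest for 3 of its 14 genes.

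Spermatid markers ran the other way, with 19 of 20 above 0 and medians of -0.02 and 0.76 for the DEHP mice against 0.21, -0.56 and -0.41 for the vehicle mice. Prm1, the sperm protamine, was at 0.32 and 0.88 against -0.13, -0.73 and -0.34, and Hspa1l, a spermatid chaperone, at 0.35 and 0.75 against -0.16, -0.46 and -0.47. Sertoli cell markers (16 tested, 12 below 0) had medians from -0.08 to -0.07 in DEHP mice and -0.05 to 0.11 in vehicle mice. The 2 red blood cell genes tested, Hba-a1 and Alas2, differed by -0.51 (SE 0.53) and 0.01 (SE 0.18). The part of the make-up of the captured tissue in the differences of the smooth muscle genes was not tested.

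**Figure D4:**
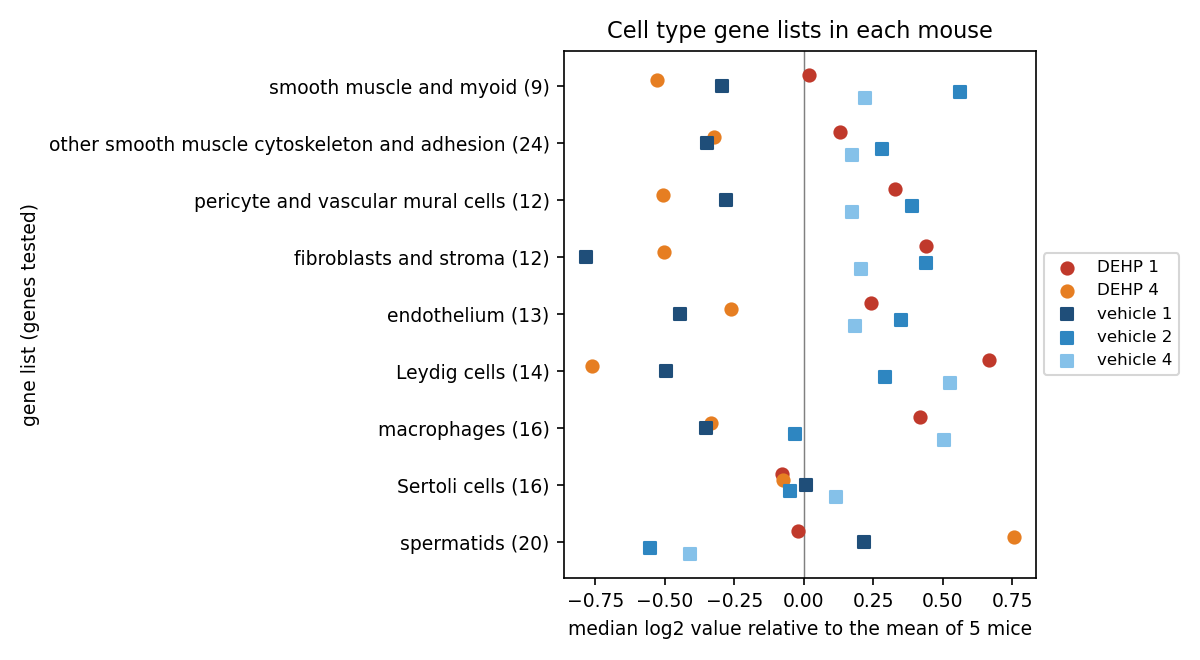
Median log2 value of each gene list by mouse, with the mean of 5 mice at 0 (horizontal axis), with the number of genes tested in brackets (vertical axis); circles are DEHP mice and squares vehicle mice. DEHP mouse 4 and vehicle mouse 1 are the lowest 2 mice for the smooth muscle (-0.53 and -0.29), mural and Leydig cell lists, and the highest 2 for spermatids (0.76 and 0.21).

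For the remaining cell types the genes of lowest p were Lum, a stromal proteoglycan (-0.40, SE 0.30), Igfbp5 (0.24, SE 0.28), the endothelial receptor genes Kdr (0.37, SE 0.23) and Flt1 (0.39, SE 0.33), and the macrophage genes Aif1 (0.55, SE 0.29) and Cd68 (0.16, SE 0.18). Those of the Leydig cell list were Hsd17b3, which makes testosterone (0.57, SE 0.38), and Nr0b1 (-0.33, SE 0.26), and those of the Sertoli cell list Cst9 (-0.66, SE 0.26) and Sox9 (-0.32, SE 0.18). All had an adjusted p of 1.00.

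Outside these lists, the 5 genes whose values lay nearest to the mean profile of the 9 smooth muscle genes over the 5 mice were Zfp740, Clcn2, Osbpl2, Degs2 and Stc2. Their root mean squared distance from that profile was 0.04 to 0.06 on the log2 scale. Zfp740, a zinc finger gene, measured 0.10 in DEHP mouse 1, -0.64 in DEHP mouse 4, -0.34 in vehicle mouse 1, 0.72 in vehicle mouse 2 and 0.16 in vehicle mouse 4. None of them is a smooth muscle marker, and a likeness over 5 mice is a description of those mice.

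The authors' deposited table holds log2 ratios for 7 of the 9 genes, on 10 to 12 arrays each. In the authors' deposited table, the ratio of DEHP over vehicle for Acta2 had a median of -0.81 over 12 arrays, from -2.32 to 0.53, with 2 arrays above 0. The authors' deposited table gave medians of -0.99 for Cnn1 (12 arrays), -0.56 for Tpm2 (11 arrays) and -0.18 for Myh11 (11 arrays). On 10 arrays each, the authors' deposited table gave -0.40 for Mylk, -0.38 for Tagln and -0.33 for Lmod1. The medians are those of whichever arrays hold a value. For all of these genes but Acta2 and Cnn1 the pairs of mice are then not all equally weighted.

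The promoter of Acta2 is a well-known target of serum response factor, and CArG boxes were looked for in the reference sequence. RefSeq (GRCm38.p6) promoter windows matched 7 of the 10 genes: Acta2, Cnn1, Des, Mylk, Tpm2, Lmod1 and Smtn. The windows at hand held none under the names Actg2, Myh11 and Tagln. The CArG box proper, with 6 A or T between CC and GG, was in the 250 bases before the start site of 0 of these 7 genes and of 1.47% of all 32851 windows. A looser form of this 10-base box, CC and GG around 6 bases with at most 1 C or G among them, which reads alike on both strands, was in 8.59% of all windows and in 1 of the 7, that of Acta2. There it occurred at 2 places, shown in capitals, the nearer of them 24 bases before the annotated start site:
Acta2 promoter, chr19:34255383-34255472 (GRCm38.p6), minus strand: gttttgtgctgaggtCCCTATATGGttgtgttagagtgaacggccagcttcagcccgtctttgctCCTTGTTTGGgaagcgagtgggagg
A match of letters is a description of the sequence and says nothing of binding in these mice, and no match says nothing of the factor at the other genes.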

How the data were processed

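Per the file headers, the intensity of each spot (mean signal, local background and processed signal of both channels) came from Feature Extraction 9.5.1.1. The authors deposited with it flags, a score of 0 or 1 per spot, and a log10 ratio of Cy5 to Cy3 that served to check directions. The authors' deposited value table holds log2 ratios; the submitters' processing notes name limma, and the filter and normalization are not given in the sources used here. Its rows were matched by spot order (r of 0.915 to 0.993 with the scanner ratio).

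The analysis used limma 3.58.1 under R 4.3.3. Normexp with an offset of 50 corrected the background, and loess normalized the ratios within an array. Control and outlier spots were left out and spots of a probe averaged. Least squares on the 12 ratios gave a value per mouse and a dye effect. Probes had to be well above background on 50% of the arrays in 2 or more mice, which 21198 of 41174 were. The brightest probe stood for a gene, named through its accession where possible (10550 of 15830). DEHP and vehicle were compared with lmFit and eBayes on 5 mouse values, with Benjamini-Hochberg adjustment over all genes and a threshold of 0.05, so these p-values measure the spread between mice. Mice of the same group were compared on the 12 arrays, where they measure the spread between arrays. The number of arrays limits the precision of each value. The functions were tested on simulated data with group differences larger than those of the smooth muscle genes. Whether they recover differences of the size seen here was not tested.

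Named were all 10 genes, from each other list the genes past the threshold or else the 2 of lowest p, the 5 genes nearest in profile, and Insl3 and Prm1; genes beyond this rule (Myl9, Srf, and those named because their groups did not overlap) were chosen after their values were seen. A gene that the rule takes is not reported here. The members and lists were chosen with earlier results of these data known. Alternatives covered background, normalization, filter, probes, unit of replication, dye, slide, left-out mice and the authors' table.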

Additional observations from a re-analysis of the deposited data

How the results depend on the processing

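With 2 and 3 mice, an interval of the bright genes spans several fold. The background offset pulls ratios of dim probes toward 0, and its part in the differences of Des, Actg2, Mylk and Myh11 was not tested. In that order, the differences were -0.03, 0.17, -0.28 and -0.10. They were -1.52, 0.89, -0.61 and -0.16 from the processed signals, and -0.05, 0.19, -0.31 and -0.15 with no background correction. The median difference of the smooth muscle genes stayed below 0 in all 22 alternatives. It was -0.86 over the 5 genes well above background on all arrays in both channels (5 of 5 below 0, and 5 called between DEHP mice 4 and 1), and it ran from -0.72 to -0.09 with 1 mouse left out, with 6 to 8 genes below 0. Under each other background or normalization setting 8 of 9 lay below 0. Median centring in place of loess left 3 genes called between DEHP mice 4 and 1. Taking the 12 arrays as independent called 2123 genes, with Acta2, Cnn1 and Mylk among them (limma, adjusted p 0.0483, 0.00825 and 0.0290), but that fit counts 5 mice as 12 samples. With the pair as a random block 104 genes were called, with Cnn1 (limma, adjusted p 0.0482), but that fit takes pairs that share mice as independent. On slide 3 alone, where vehicle mouse 4 is the only vehicle mouse, Actg2 was at -0.0668, Myh11 at 0.212 and Des at 0.0304. With 1 mouse left out Myh11 ran from -0.49 to 0.29 and Des from -0.31 to 0.24. Slides 1 and 2 each hold 1 dye orientation, so they share a dye effect, and their values alone include it. Mouse numbers 1 and 4 occur in both groups but name different animals, whose deviations from the group means correlated at -0.73 and -0.56 across genes. With the number as a replicate block, 0 genes were called, the median was -0.22, Myh11 was at 0.0939 and Des at 0.0034. Acta2, Cnn1, Tagln, Mylk, Tpm2 and Lmod1 kept a negative difference in all alternatives that gave a value. The cause of these shifts was not tested, except that the stricter filter tests fewer genes.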
